A study of Mus musculus with 12 samples.

Results

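Expression of Bmf and the Bcl-2 family was examined in kidney proximal tubule preparations of 12 mouse samples. The family was taken as 10 genes: the BH3-only genes Bmf, Bcl2l11, Bid, Bad and Bbc3, the effectors Bax and Bak1, and the anti-apoptotic genes Bcl2, Bcl2l1 and Mcl1. A probe set was assigned to a gene where the array annotation gave it 1 gene symbol. Each gene was read from its probe set with the highest mean over the 12 arrays, and Bmf from all of its probe sets. By this rule 9 of the 10 genes had a probe set, 31 probe sets in all among 45037, and Bax is not analysed here. Probe sets above 4 (log2) on at least 3 arrays were tested, which kept 8 of the genes and 20 of their probe sets among 9744 genes and 18144 probe sets. Bbc3 fell below that filter.

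The samples came from mice aged 20 weeks on a normal diet, in 4 groups of 3 arrays. The first group was dB/dB catalase-Tg, mice with both the dB/dB mutation and a catalase transgene. The second was dB/dB, without the transgene. The mutation disables the leptin receptor, and such mice develop obesity and diabetes. The third group was catalase-Tg, with the transgene and no dB/dB mutation, and the fourth was wild type. In earlier work on such mice the transgene is rat catalase under the Kap promoter, which is active in proximal tubule cells. The labels do not state this. Catalase, an enzyme of peroxisomes, turns hydrogen peroxide into water and oxygen. Tubules were isolated by Percoll centrifugation, so a preparation can hold other kidney cells. Nothing in the labels says that a group's samples were different animals, and p-values therefore reflect spread between samples that could be technical.

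Proteins of the Bcl-2 family decide whether the outer mitochondrial membrane of a cell is opened, which releases cytochrome c and starts the caspase cascade. The effectors Bax and Bak form the pores, Bcl-2, Bcl-xL (gene Bcl2l1) and Mcl-1 hold them back, and BH3-only proteins such as Bmf, Bim (gene Bcl2l11), Bid, Bad and Puma (gene Bbc3) bind the guardians or activate the effectors. Bmf is held at the actin cytoskeleton through dynein light chain 2 until it is released, and it has been studied in these mice as a candidate mediator of tubular cell death. Whether its expression was higher in dB/dB tubules, and lower again with the catalase transgene, is the question these comparisons address.

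The promoter windows of Bmf, Bid and Bcl2, the 3 members with the widest range over the 12 arrays, are shown here. Whether these sequences bear on the levels was not tested. Each window is 300 bases long, mostly upstream of a RefSeq transcript start of build GRCm38.p6, and is written 5′ to 3′ along the gene's strand. Capitals mark matches to the motifs searched. The 3 windows of Bmf lie on the minus strand at chr2:118544538-118544837, chr2:118547550-118547849 and chr2:118549637-118549936. The Bid window lies at chr6:120916775-120917074 and the Bcl2 window at chr1:106714241-106714540, both on the minus strand.
Bmf window 1: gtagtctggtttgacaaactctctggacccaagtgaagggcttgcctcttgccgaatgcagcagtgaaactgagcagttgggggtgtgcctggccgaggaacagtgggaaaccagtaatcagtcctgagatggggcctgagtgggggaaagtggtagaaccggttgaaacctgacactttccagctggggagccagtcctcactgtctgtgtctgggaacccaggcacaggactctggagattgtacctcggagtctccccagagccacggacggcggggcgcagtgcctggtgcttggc
Bmf window 2: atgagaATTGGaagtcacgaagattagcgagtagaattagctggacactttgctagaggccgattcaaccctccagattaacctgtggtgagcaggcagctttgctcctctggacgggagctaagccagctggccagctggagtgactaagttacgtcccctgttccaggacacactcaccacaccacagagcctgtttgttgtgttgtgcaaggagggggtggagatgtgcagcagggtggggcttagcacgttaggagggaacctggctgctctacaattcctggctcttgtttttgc
Bmf window 3: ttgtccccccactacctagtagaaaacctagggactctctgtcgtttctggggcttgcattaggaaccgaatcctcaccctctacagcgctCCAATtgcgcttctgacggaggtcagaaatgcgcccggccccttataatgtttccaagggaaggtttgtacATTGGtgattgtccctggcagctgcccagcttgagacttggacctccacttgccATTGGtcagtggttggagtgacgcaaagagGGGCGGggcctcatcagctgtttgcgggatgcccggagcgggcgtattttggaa
Bid: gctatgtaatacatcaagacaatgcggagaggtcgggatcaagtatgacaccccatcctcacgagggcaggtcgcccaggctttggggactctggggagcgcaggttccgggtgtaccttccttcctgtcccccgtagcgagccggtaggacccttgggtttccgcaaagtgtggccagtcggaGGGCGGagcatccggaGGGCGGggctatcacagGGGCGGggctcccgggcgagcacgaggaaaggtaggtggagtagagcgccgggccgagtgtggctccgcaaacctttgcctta
Bcl2: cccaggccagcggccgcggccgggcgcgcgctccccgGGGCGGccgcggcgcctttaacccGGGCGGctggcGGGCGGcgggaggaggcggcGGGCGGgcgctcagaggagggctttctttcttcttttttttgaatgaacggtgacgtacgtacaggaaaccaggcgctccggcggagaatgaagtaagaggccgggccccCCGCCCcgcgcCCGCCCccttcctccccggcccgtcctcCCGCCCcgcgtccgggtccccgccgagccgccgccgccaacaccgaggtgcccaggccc

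6 motifs were searched on both strands in the 18 windows of the 10 genes and in all 32851 windows of the RefSeq table. They were the FOXO site GTAAACA, the AP-1 site TGANTCA, the antioxidant response element TGACNNNGC, the E-box CACGTG, the CCAAT box and the GC box GGGCGG. Matches to different motifs did not overlap in these 18 windows. Bmf window 1 held no match, window 2 held 1 CCAAT box, and window 3 held 3 CCAAT boxes and 1 GC box. The Bid window held 3 GC boxes and the Bcl2 window 7 GC boxes. The FOXO site was found in 2 of the 18 windows, 1 of Bcl2l11 and 1 of Bbc3, and in 3.65% of all windows. The AP-1 site was found in 0 of the 18 windows and in 7.81% of all windows. The antioxidant response element was found in 1 window, of Bcl2l1, and in 12.4% of all. The E-box was found in 2 windows, of Bax and Bbc3, and in 7.15% of all. CCAAT boxes were in 6 windows of 4 genes and in 37.4% of all, and GC boxes in 11 windows of 8 genes and in 35.7% of all. Windows 2 and 3 of Bbc3 overlap, and GC boxes in their shared part were counted in both. A match describes letters in these windows and is not evidence of a bound factor.

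The arrays were alike in overall signal. The share of probe sets above 4 (log2) was 36.9% to 38.5%, and arrays correlated at r = 0.941 to 0.996 within groups and 0.938 to 0.991 between groups. The proximal tubule markers Slc34a1 (12.84 to 14.07) and Lrp2 (10.39 to 13.36) were bright on every array, and 13 of 14 markers of this cell type were above 4 on all 12. Markers of other cells were present as well. Of the endothelial markers 6 of 12 were above 4 on every array, of the loop of Henle and distal tubule markers 7 of 8, and of the podocyte markers 1 of 6. The mean endothelial marker score, which is the mean log2 difference of the markers from their average over the 12 arrays, was -1.19 to 1.48 in dB/dB catalase-Tg, 0.84 to 1.78 in dB/dB, -1.72 to -0.09 in catalase-Tg and -1.47 to 1.48 in wild type. The podocyte score was -1.97 to 1.03 in dB/dB catalase-Tg, 0.67 to 2.96 in dB/dB, -2.58 to -1.71 in catalase-Tg and -2.30 to 2.78 in wild type. The fibroblast and mural score, with 4 of 6 tested markers above 4 on every array, was -1.42 to 1.93 in dB/dB catalase-Tg, 0.93 to 1.77 in dB/dB, -1.95 to 0.08 in catalase-Tg and -1.60 to 1.63 in wild type. The defining podocyte gene Nphs1 read 2.98 to 7.70 and the endothelial gene Pecam1 3.30 to 8.29, so neither was bright on every array. In bulk RNA fewer cells of a type and less RNA per cell cannot be told apart.

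Several arrays stood apart. limma's array weights were lowest for dB/dB catalase-Tg 1 (0.172), wild type 1 (0.227) and catalase-Tg 1 (0.287), against 0.629 to 3.03 for the other arrays. Wild type 2 and wild type 3 carried the female-specific transcript Xist at 11.91 and 6.72, against 2.31 to 2.67 on the other 10 arrays. The Y-linked gene Eif2s3y was at the floor of 2.30 on wild type 2 and between 7.88 and 8.93 on the other 11. Wild type 3 thus carried both, and wild type 1 had the pattern of the other groups' arrays, so sex-linked signal was mixed in the wild-type group alone. Cat read 11.78, 12.64 and 12.90 in dB/dB catalase-Tg and 12.24, 12.36 and 12.56 in dB/dB, and 11.98, 12.42 and 12.39 in catalase-Tg and 10.66, 12.68 and 12.43 in wild type. Transgenic and non-transgenic arrays overlapped in both pairs, so the transgene was not visible in Cat, and whether this probe set detects the transgene's transcript is not given in the sources used here. Kap, whose promoter drives the transgene in earlier work, read 8.46 on catalase-Tg 1 and 8.63 on wild type 1. The other arrays read 11.70 to 15.29 for Kap.

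Bmf was highest on the 3 dB/dB arrays. Its 1454880_s_at probe set read 5.16, 4.29 and 4.35 (log2) in dB/dB catalase-Tg and 5.51, 5.48 and 5.86 in dB/dB. It read 4.36, 4.27 and 4.29 in catalase-Tg and 4.96, 3.77 and 4.35 in wild type. All 3 dB/dB arrays lay above all 9 arrays of the other groups, whose own ranges overlapped. The next highest arrays were dB/dB catalase-Tg 1 and wild type 1. Group means were 4.60 ± 0.48 in dB/dB catalase-Tg, 5.62 ± 0.21 in dB/dB, 4.31 ± 0.05 in catalase-Tg and 4.36 ± 0.59 in wild type (SD, n = 3 each). The signal was close to the filter of 4 outside dB/dB, with wild type 2 below it. Values were also repeated across groups there. dB/dB catalase-Tg 2 and catalase-Tg 3 both read 4.2863, and dB/dB catalase-Tg 3 and wild type 3 both read 4.3503. What these repeats reflect was not tested. The other probe sets of Bmf, 1422995_at and 1458325_x_at, were at the array floor of 2.30 on 11 of 12 arrays and were not tested, so the Bmf result rests on 1 probe set.

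**Figure D1:**
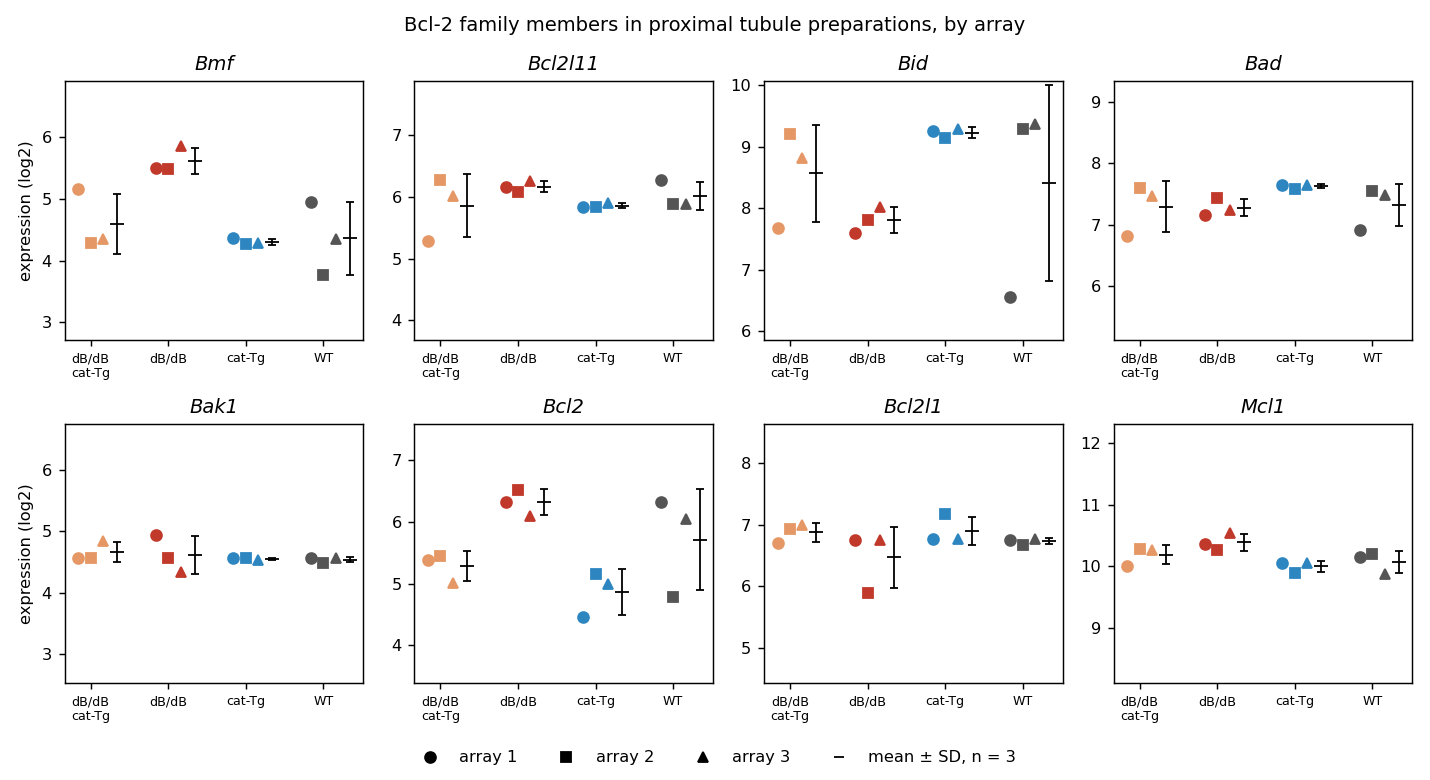
Expression (log2, vertical axes of equal span) of the 8 tested members on every array, with circles, squares and triangles for arrays 1, 2 and 3 of a group and bars for the group mean ± SD (n = 3). Bmf lies between 5.48 and 5.86 on the dB/dB arrays, above every other array, and the Bid values of wild type spread from 6.57 to 9.37.

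The Bmf difference between dB/dB and wild type did not pass the test over all probe sets. The mean was 1.26 higher in dB/dB (SE 0.31, 95% interval 0.56 to 1.95, limma adjusted p = 0.767), a fold of 2.39 with an interval of 1.48 to 3.87 before adjustment for the number of probe sets. All 3 dB/dB arrays were higher than all 3 wild-type arrays. By p the probe set ranked 22 of the 18144 tested. With the catalase transgene in dB/dB mice the Bmf mean was 1.02 below that of dB/dB, a difference of -1.02 (SE 0.31, 95% interval -1.72 to -0.33, adjusted p = 0.636) and a fold of 0.493. Here the groups did not overlap either, and the probe set ranked 176. Both differences share the dB/dB arrays, so the 2 are not independent.

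In mice without the dB/dB mutation the Bmf means lay close together. The difference of catalase-Tg from wild type was -0.05 (95% interval -0.75 to 0.64, limma adjusted p = 0.972). dB/dB catalase-Tg differed from catalase-Tg by 0.29 (interval -0.40 to 0.99, adjusted p = 0.847) and from wild type by 0.24 (interval -0.46 to 0.93, adjusted p = 1.00). These intervals are wide and do not show equal levels. The interaction, which asks whether the transgene changed Bmf more in dB/dB than in other mice, was -0.97 (SE 0.44, interval -1.95 to 0.02, adjusted p = 1.00).

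**Figure D2:**
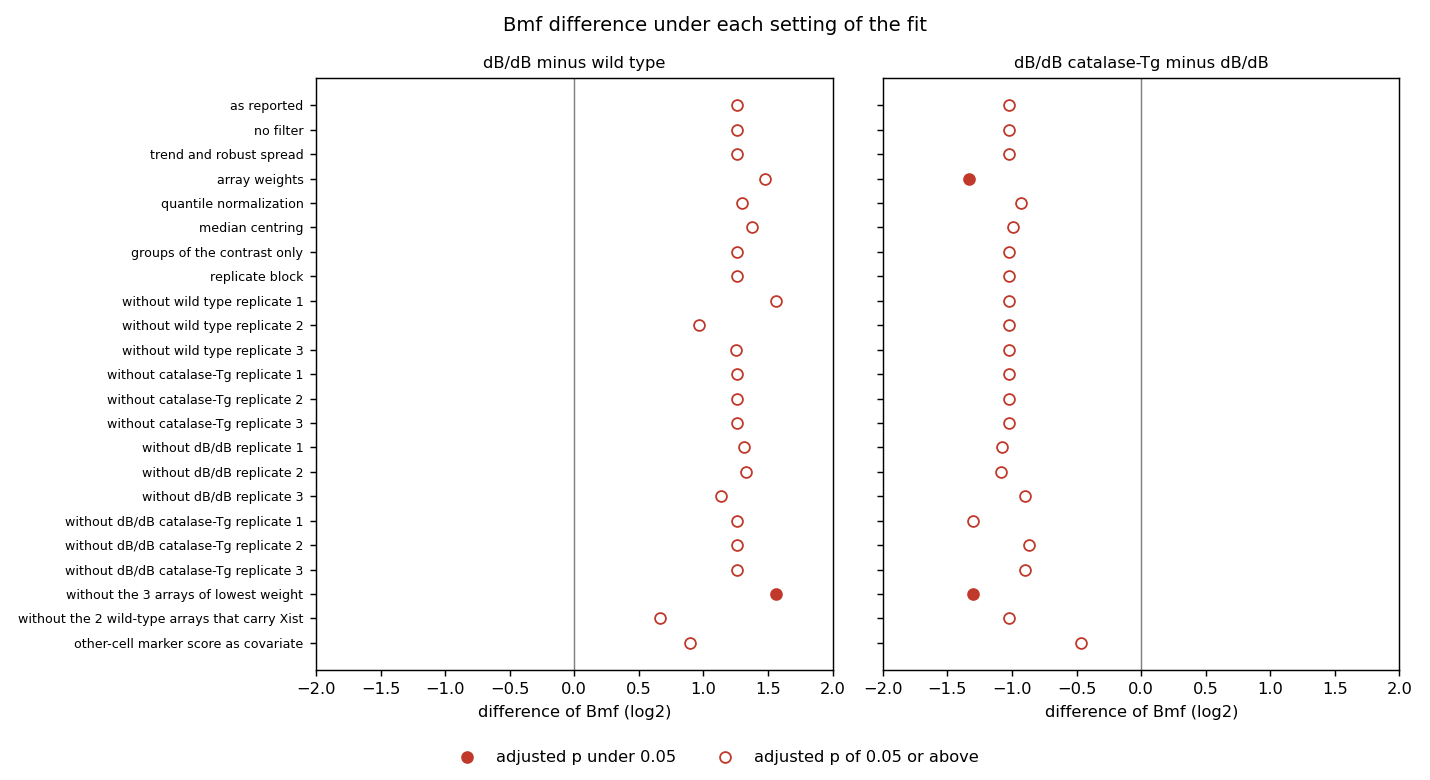
Difference of Bmf (log2, horizontal axis) in dB/dB minus wild type (left) and dB/dB catalase-Tg minus dB/dB (right) under each way of fitting the data, with filled points where the adjusted p is under 0.05. The points stay between 0.66 and 1.56 on the left and between -1.33 and -0.47 on the right.

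The call for Bmf turned on the arrays that stood apart. Without the 3 arrays of lowest weight, an alternative chosen after seeing the data, the dB/dB minus wild type difference was 1.56 with a limma adjusted p of 0.00323. In the same fit dB/dB catalase-Tg minus dB/dB was -1.30 with an adjusted p of 0.00489. That fit called 26.9% and 27.8% of all probe sets in these comparisons, so its calls are not particular to Bmf. Without wild type 2 and wild type 3, the arrays with Xist, dB/dB minus wild type was 0.66 with an adjusted p of 1.00 and rested on 1 wild-type array.

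The endothelial marker score was also higher on the dB/dB arrays, and Bmf followed it over the 12 arrays at r = 0.881, with r = 0.774 for the podocyte score and -0.671 for the proximal tubule score. On the arrays with endothelial scores of 1.48, dB/dB catalase-Tg 1 and wild type 1, Bmf read 5.16 and 4.96. On dB/dB 2, whose score was 0.84, it read 5.48. With the mean score of the endothelial, podocyte and fibroblast and mural markers as a covariate, the Bmf difference was 0.90 in dB/dB minus wild type (limma adjusted p = 0.631) and -0.47 in dB/dB catalase-Tg minus dB/dB (adjusted p = 1.00). The covariate left out the collecting duct and the loop of Henle and distal tubule scores. The collecting duct score was -0.17 to 1.08 in dB/dB catalase-Tg and 0.30 to 1.19 in dB/dB. It was -0.62 to -0.44 in catalase-Tg and -0.83 to -0.30 in wild type. The loop of Henle and distal tubule score was 0.21 to 0.99 in dB/dB catalase-Tg and 1.05 to 1.53 in dB/dB. It was -2.44 to -1.52 in catalase-Tg and -1.70 to 1.66 in wild type. Whether other cell types in the preparations account for the Bmf signal was not tested beyond the covariate.

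**Figure D3:**
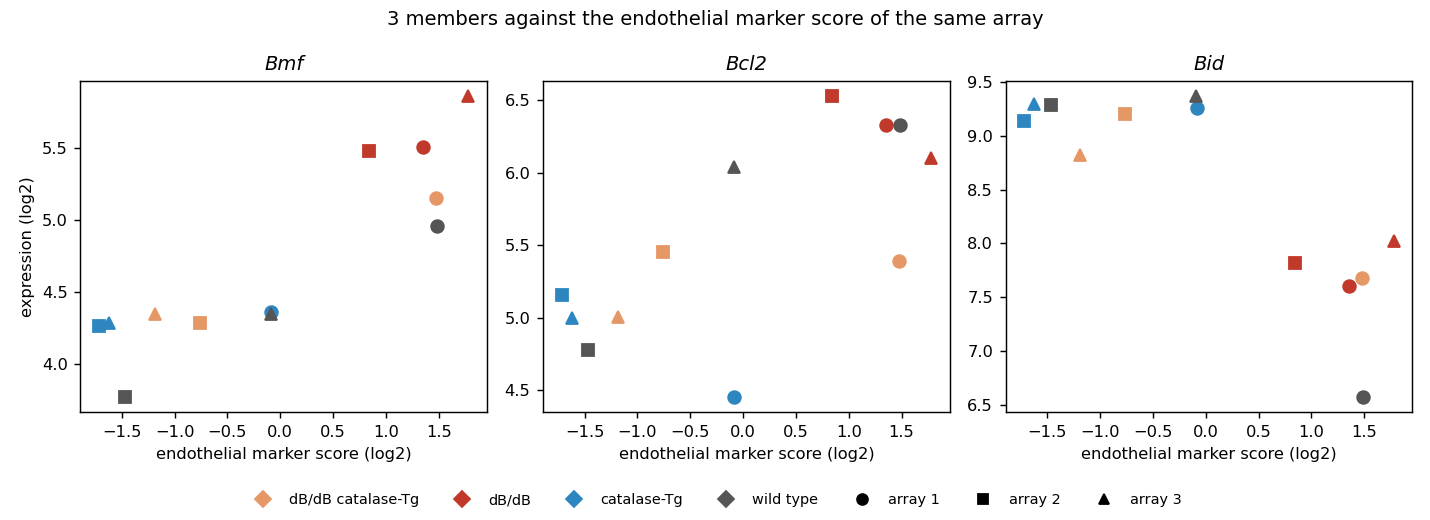
Expression (log2, vertical axis) of Bmf, Bcl2 and Bid against the mean endothelial marker score (log2, horizontal axis) of the same array, with 1 point per array and colours for the 4 groups. Bmf and Bcl2 are higher and Bid lower on arrays with high scores, at r = 0.881, 0.707 and -0.825 over the 12 arrays.

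The dB/dB arrays were also high for Bcl2, the founding anti-apoptotic member. Its probe set read 5.39, 5.45 and 5.0 in dB/dB catalase-Tg and 6.33, 6.53 and 6.10 in dB/dB, and these groups did not overlap. It read 4.45, 5.15 and 5.0 in catalase-Tg and 6.33, 4.78 and 6.04 in wild type. Wild type 1 lay within the dB/dB range, wild type 3 just below it and wild type 2 well below it. The difference was -1.04 in dB/dB catalase-Tg minus dB/dB (SE 0.37, 95% interval -1.85 to -0.23, limma adjusted p = 0.636), 0.61 in dB/dB minus wild type (SE 0.37, interval -0.21 to 1.42, adjusted p = 0.767) and -0.85 in catalase-Tg minus wild type (interval -1.66 to -0.03, adjusted p = 0.534). Without wild type 2 the last of these was -1.32 with an adjusted p of 0.0457, in a fit that called 1.49% of all probe sets, and dB/dB minus wild type was 0.14. Without wild type 2 and 3, dB/dB minus wild type was -0.01. Without the 3 arrays of low weight it was 0.91 (adjusted p = 0.0898), dB/dB catalase-Tg minus dB/dB was -1.09 (adjusted p = 0.0522) and catalase-Tg minus wild type was -0.33. A further Bcl2 probe set, 1437122_at, gave smaller differences of -0.47 in dB/dB catalase-Tg minus dB/dB and 0.37 in dB/dB minus wild type, with overlapping groups. Bcl2 followed the podocyte marker score at r = 0.885, and with the marker covariate its differences were 0.35 in dB/dB minus wild type, -0.65 in dB/dB catalase-Tg minus dB/dB and -0.49 in catalase-Tg minus wild type.

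Bid ran the other way. Bid is the BH3-only protein that caspase-8 cleaves to carry a death receptor signal to mitochondria. It read 7.68, 9.20 and 8.82 in dB/dB catalase-Tg and 7.60, 7.82 and 8.02 in dB/dB. It read 9.26, 9.14 and 9.29 in catalase-Tg and 6.57, 9.29 and 9.37 in wild type. The dB/dB arrays were low together with dB/dB catalase-Tg 1 and wild type 1, the lowest of all, while the other 7 arrays lay between 8.82 and 9.37. A Bid difference of -0.60 in dB/dB minus wild type (SE 0.66, 95% interval -2.05 to 0.86, limma adjusted p = 0.782) and of 0.76 in dB/dB catalase-Tg minus dB/dB (SE 0.66, interval -0.70 to 2.21, adjusted p = 0.693) did not pass. Without the 3 arrays of low weight these were -1.52 (adjusted p = 0.00247) and 1.20 (adjusted p = 0.0043), where 26.9% and 27.8% of all probe sets were called. Without wild type 2 and 3, with wild type 1 alone as the wild-type arm, the dB/dB minus wild type difference turned to 1.24 (adjusted p = 1.00), and without wild type 3 it was -0.12. The Bid probe set 1448560_at showed the same arrays low, at 4.92 on dB/dB catalase-Tg 1, 4.81, 4.92 and 5.19 in dB/dB and 4.02 on wild type 1, against 6.40 to 7.24 on the other 7. On the third, 1447873_x_at, these 5 arrays were the lowest as well, at 2.73 on dB/dB catalase-Tg 1, 3.71, 4.39 and 3.74 in dB/dB and 2.30 on wild type 1, against 4.40 to 4.88 on the other 7. Its group differences were 0.23 in dB/dB minus wild type and -0.06 in dB/dB catalase-Tg minus dB/dB.

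Bid followed the proximal tubule marker score over the 12 arrays at r = 0.904 and the endothelial score at r = -0.825. The proximal tubule score was -0.35 on dB/dB catalase-Tg 1, -0.63, -0.70 and -0.45 in dB/dB and -1.80 on wild type 1, and -0.19 to 0.92 on the others. With the marker covariate the Bid differences were 0.01 in dB/dB minus wild type and -0.17 in dB/dB catalase-Tg minus dB/dB.

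The other BH3-only genes varied less. Bcl2l11, which encodes Bim, an activator of Bax and Bak, averaged 5.86 ± 0.51 in dB/dB catalase-Tg, 6.17 ± 0.09 in dB/dB, 5.86 ± 0.04 in catalase-Tg and 6.01 ± 0.23 in wild type (SD, n = 3 each). Its lowest array was dB/dB catalase-Tg 1 at 5.29, and the ranges of dB/dB and wild type overlapped. The differences were 0.15 in dB/dB minus wild type (SE 0.24, limma adjusted p = 0.828) and -0.31 in dB/dB catalase-Tg minus dB/dB (SE 0.24, adjusted p = 0.665). Without wild type 2 and 3 the first was -0.11, and without the 3 arrays of low weight the second was -0.02. The other tested Bcl2l11 probe set, 1435448_at, gave 0.03 and -0.05 over all arrays, with overlapping groups.

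Bad, whose protein is kept inactive by phosphorylation through survival kinases, averaged 7.30 ± 0.42 in dB/dB catalase-Tg, 7.28 ± 0.14 in dB/dB, 7.63 ± 0.04 in catalase-Tg and 7.32 ± 0.34 in wild type (SD, n = 3 each). Its lowest arrays were again dB/dB catalase-Tg 1 at 6.82 and wild type 1 at 6.92. The 3 catalase-Tg arrays lay above the 3 wild-type arrays, by 0.31 (SE 0.24, limma adjusted p = 0.696). The difference was 0.11 without wild type 1 and -0.0048 with the marker covariate, and the other tested Bad probe set, 1416583_at, gave -0.04 with overlapping groups. In dB/dB minus wild type Bad differed by -0.04, and by 0.35 without wild type 2 and 3. Bbc3, the gene of Puma, a target of p53, read 2.67 to 3.72 over the 12 arrays and was not tested.

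Bak1, the pore-forming effector that was measured, sat close to the filter in every group, at 4.66 ± 0.16 in dB/dB catalase-Tg, 4.61 ± 0.31 in dB/dB, 4.55 ± 0.02 in catalase-Tg and 4.54 ± 0.04 in wild type (SD, n = 3 each). On 7 of the 12 arrays its value was 4.56 within 0.01 in log2, a value repeated across groups. The differences were 0.07 in dB/dB minus wild type (limma adjusted p = 0.885) and 0.04 in dB/dB catalase-Tg minus dB/dB (adjusted p = 0.938).

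Bcl2l1, the gene of Bcl-xL, read 6.70, 6.93 and 7.0 in dB/dB catalase-Tg and 6.75, 5.90 and 6.76 in dB/dB. It read 6.77, 7.17 and 6.77 in catalase-Tg and 6.75, 6.68 and 6.78 in wild type. On this probe set dB/dB 2 alone was low, and the remaining 11 arrays lay within 6.68 to 7.17. The differences were -0.27 in dB/dB minus wild type (SE 0.24, limma adjusted p = 0.767) and 0.41 in dB/dB catalase-Tg minus dB/dB (SE 0.24, 95% interval -0.13 to 0.94, adjusted p = 0.636). Without dB/dB 2 these were 0.02 and 0.12. The same differences were -0.08 and 0.16 on 1426191_a_at, with overlapping groups. On 1420887_a_at they were -0.05, lower without overlap, and 0.04, with overlap. There catalase-Tg lay above wild type (0.22) and above dB/dB catalase-Tg, whose difference from it was -0.24, both without overlap. dB/dB 2 did not stand apart on these probe sets, at 4.94 and 5.51.

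Mcl1, the short-lived guardian that Noxa and Bim bind, read 10.01, 10.28 and 10.27 in dB/dB catalase-Tg and 10.35, 10.27 and 10.54 in dB/dB. It read 10.05, 9.89 and 10.06 in catalase-Tg and 10.15, 10.19 and 9.87 in wild type. The dB/dB arrays lay above the wild-type arrays by a small margin on this probe set and overlapped those of dB/dB catalase-Tg. The dB/dB minus wild type difference was 0.32 (SE 0.16, 95% interval -0.05 to 0.68, limma adjusted p = 0.767), and dB/dB catalase-Tg minus dB/dB was -0.21 (SE 0.16, adjusted p = 0.670). On the other 5 tested Mcl1 probe sets dB/dB and wild type overlapped, with differences of -0.26 to 0.18. In dB/dB catalase-Tg minus dB/dB, 1416880_at (-0.21), 1437527_x_at (-0.35) and 1456381_x_at (-0.24) were lower without overlap, and 1456243_x_at and 1416881_at overlapped. In catalase-Tg minus wild type, 1437527_x_at (-0.42), 1456243_x_at (-0.36) and 1456381_x_at (-0.39) were lower without overlap, and 1416880_at and 1416881_at overlapped. These had a limma adjusted p of 0.544 or above.

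**Figure D4:**
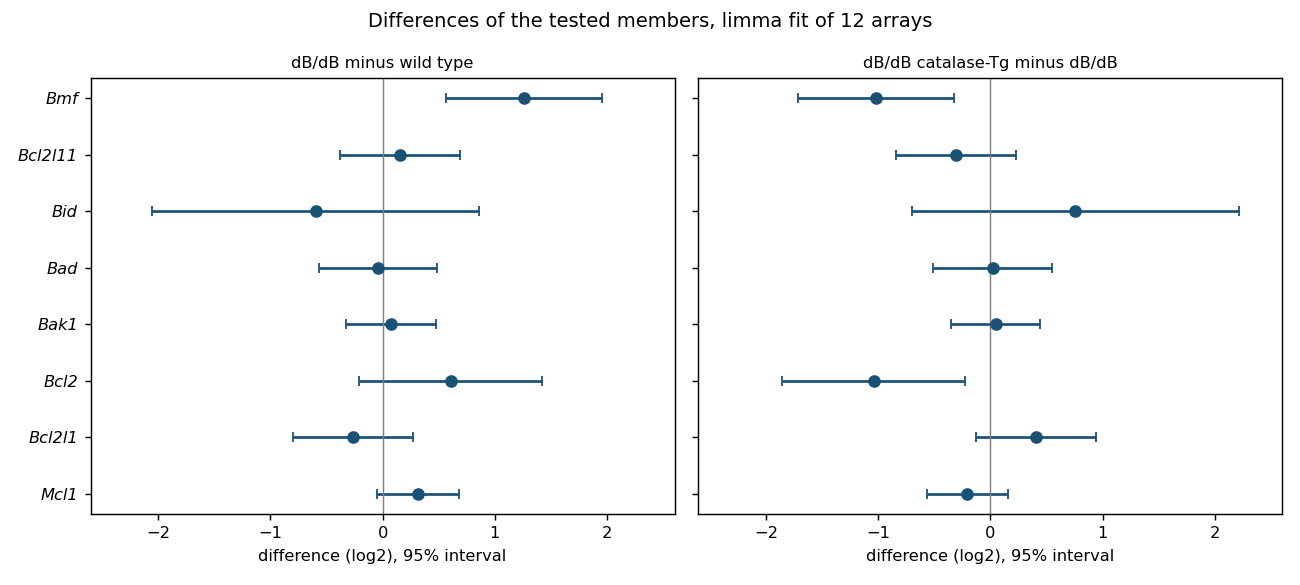
Differences of the 8 tested members (log2, horizontal axes) with 95% intervals from limma, for dB/dB minus wild type (left) and dB/dB catalase-Tg minus dB/dB (right). The intervals of Bmf exclude 0 in both panels, at 0.56 to 1.95 and -1.72 to -0.33, and that of Bcl2 on the right, at -1.85 to -0.23, before adjustment for the number of probe sets.

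Over the 8 tested members 0 were called at an adjusted p of 0.05 in dB/dB minus wild type, against 0% of all probe sets. At an unadjusted 0.05 the count was 1 (Bmf), against 4.16% of all probe sets. Groups did not overlap for 2 members higher in dB/dB (Bmf and Mcl1), against 2.52% of probe sets, and for 0 lower, against 8.91%. The median difference of the 8 was 0.11, beside a median of -0.11 over all probe sets. Relative to that shift of all probe sets, with arrays centred on their median, the Bmf difference was 1.38.

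In dB/dB catalase-Tg minus dB/dB 0 of the 8 were called, against 0.00551% of probe sets, and 2 (Bmf and Bcl2) passed an unadjusted 0.05, against 7.5%. These 2 were also the members whose groups did not overlap, both lower, against 11.1% of probe sets, and 0 were higher without overlap, against 4.87%. The medians were -0.09 for the members and -0.02 for all probe sets. In catalase-Tg minus wild type 0 were called, against 0.022%, 1 (Bcl2) passed an unadjusted 0.05, against 9.15%, and 1 (Bad) was higher without overlap, against 5.74%, with 0 lower, against 7.8%. In dB/dB catalase-Tg minus catalase-Tg 0 of 8 were called (0.0276% of probe sets) and 0 passed an unadjusted 0.05 (6.86%), and 0 were higher (6.67%) or lower (9.35%) without overlap. In dB/dB catalase-Tg minus wild type the counts were also 0, against 0.00551% called, 3.46% unadjusted and 0.942% higher and 7.1% lower without overlap. In the interaction 0 were called and 0 passed an unadjusted 0.05, against 0.00551% and 1.64%. Members that pass a filter on low values are not all members, and these counts describe only the 8, each read from 1 probe set. Other probe sets of Mcl1 and Bcl2l1 did not always share the overlap counted here.

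Over the 12 arrays Bcl2 followed Bmf at r = 0.748 and Mcl1 at 0.567, while Bcl2l11 (0.227) and Bak1 (0.014) had lower r and Bcl2l1 (-0.453), Bad (-0.634) and Bid (-0.753) ran opposite. Bcl2 ranked 946 among 9743 genes for likeness to Bmf. The genes most like Bmf were Gpihbp1 (r = 0.951), the capillary anchor of lipoprotein lipase, Unc13b (0.951), a vesicle priming factor, Peg3 (0.946), an imprinted zinc finger gene, Slc26a4 (0.937), the anion exchanger pendrin, Entpd1 (0.934), which encodes the nucleotide-degrading enzyme CD39, and Marveld1 (0.930). Slc26a4 was also among the collecting duct markers. Some of these genes were dim outside dB/dB. Entpd1 averaged 4.46 in dB/dB, but 3.10 in dB/dB catalase-Tg, 2.46 in catalase-Tg and 2.94 in wild type, below the filter of 4. Gpihbp1 averaged 3.42 in catalase-Tg and 3.96 in wild type, and Slc26a4 averaged 3.45 in catalase-Tg. These genes were picked by their r with Bmf, so a high r is no separate result. The points of these correlations share the same 12 arrays, over which the marker scores also vary.

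The wider pathway was read from lists of other Bcl-2 family genes, of mitochondrial apoptosis machinery, and of regulators and partners of BH3-only proteins and Mcl1. Of these 5, 15 and 17 genes were tested, and 0 were called in any of the 6 comparisons. Among the other family genes all 5 differences were below 0 in dB/dB minus wild type (median -0.60, beside -0.11 over all probe sets). In dB/dB catalase-Tg minus dB/dB 4 of 5 were above 0 (median 0.47, beside -0.02 over all probe sets). These family genes included the BH3-only genes Bik (-0.60 and 0.57 in these comparisons) and Pmaip1, which encodes Noxa, a binder of Mcl-1. Pmaip1 was low on the same 5 arrays as Bid, at 4.51 on dB/dB catalase-Tg 1, 4.51, 4.78 and 4.78 in dB/dB and 3.96 on wild type 1, against 6.93 to 7.72 on the other 7 arrays. Bcl2l13 differed by -0.61 and 0.47, and the guardian Bcl2l2 by -0.11 and -0.35.

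Of the machinery genes 4 had differences above 0 and 11 below 0 in dB/dB minus wild type. Their median was -0.15, close to the -0.11 over all probe sets. Apaf1, the scaffold of the apoptosome, differed by -0.70 in dB/dB minus wild type and by -0.62 in dB/dB catalase-Tg minus dB/dB. It read 4.41, 4.60 and 4.93 in wild type but 4.08, 3.85 and 3.91 in dB/dB, close to the filter of 4. In dB/dB catalase-Tg it read 3.89, 3.72 and 2.35, so the second difference rested mainly on dB/dB catalase-Tg 3. Casp9, the initiator caspase that Apaf1 activates, read 6.10, 6.12 and 5.78 in dB/dB catalase-Tg and 5.51, 5.02 and 5.35 in dB/dB. These groups did not overlap (0.70, SE 0.25, limma adjusted p = 0.636). Diablo, an antagonist of inhibitor of apoptosis proteins, differed by -0.33 in dB/dB minus wild type, and Endog, a mitochondrial nuclease, by -0.42. The inhibitor of apoptosis gene Birc2 differed by -0.43 in dB/dB catalase-Tg minus dB/dB.

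Of the regulators and partners 12 had differences above 0 and 5 below 0 in dB/dB minus wild type (median 0.14, beside -0.11 over all probe sets). In dB/dB catalase-Tg minus dB/dB 6 were above and 11 below 0 (median -0.10, beside -0.02 over all probe sets). Dynll2, the dynein light chain that holds Bmf, averaged 9.61 in dB/dB catalase-Tg, 9.58 in dB/dB, 9.61 in catalase-Tg and 9.56 in wild type. Dynll1, the related light chain that holds Bim, differed by 0.45 in dB/dB minus wild type and -0.46 in dB/dB catalase-Tg minus dB/dB. Mapk8, the kinase JNK1, which phosphorylates Bmf and Bim, read 5.60, 5.56 and 6.15 in dB/dB catalase-Tg, against 6.79, 6.31 and 7.0 in dB/dB, without overlap (-0.93, SE 0.32, limma adjusted p = 0.636). Foxo3, a transcription factor known to act on Bim and Puma genes, differed by 0.59 in dB/dB minus wild type and by -0.41 in dB/dB catalase-Tg minus dB/dB. Smad3 differed by -0.44 and the deubiquitinase Usp9x, which stabilises Mcl-1, by -0.33 in dB/dB minus wild type, and Cdkn1a, a p53 target, by 0.53 in dB/dB catalase-Tg minus dB/dB.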

How the data were processed

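Total RNA was hybridized to 12 Affymetrix mouse arrays, 3 for each of 4 groups taken from the sample titles. The authors deposited log2 values, 1 per probe set and array, computed with GCRMA (background correction, then normalization across arrays) per the submitters' processing notes. These also name limma and give no versions. No further normalization was applied. A floor of 2.30 compresses differences of dim probe sets, and precision is limited by the 3 arrays per group.

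Of 45101 probe sets 64 controls were left out. Annotation gave 34945 probe sets 1 gene symbol, 932 several and 9160 none. Symbols were looked up in the RefSeq gene table of GRCm38.p6, where 34741 matched and 0 were updated. Promoter windows and their coordinates are RefSeq's. Probe sets above 4 (log2) on at least 3 arrays were fitted with limma 3.58.1 (R 4.3.3), using all 12 arrays and a mean for each group, 6 comparisons and Benjamini-Hochberg adjustment over the 18144 tested at 0.05. SE and 95% intervals are those of limma. The fit was tested on simulated data.

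The members and lists were chosen with earlier results of these data known. Genes named beyond the members are Dynll2, up to 3 genes of each list with the smallest p in dB/dB minus wild type and in dB/dB catalase-Tg minus dB/dB, and the 6 genes most like Bmf.

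Same-numbered samples deviated together for catalase-Tg and wild type (r = 0.200 to 0.396) and for dB/dB catalase-Tg and wild type (0.265 to 0.705). The same held for dB/dB catalase-Tg and catalase-Tg (0.426 to 0.607). Samples of different numbers were not compared, and array 1 had the lowest weight within each of these 3 groups. The values therefore cannot show whether the numbers pair the samples. For comparisons with the dB/dB group r was -0.179 to 0.217, which cannot show it either. Alternatives were other filters, spread estimates, array weights, normalizations, samples in the fit, a block on replicate number, and single arrays left out. A marker covariate, leaving out 3 arrays of low weight and leaving out the 2 wild-type arrays with Xist were added after seeing the data.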

Additional observations from a re-analysis of the deposited data

How the results depend on the processing

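Of 1156 alternative values for 48 member results, 1146 stayed on the same side of the threshold, 10 passed it newly and 0 calls reversed. Of the values that were not called, 106 turned sign. The 0 members called in dB/dB minus wild type became 2 (Bmf 1.56 and Bid -1.52) without the 3 arrays of lowest weight, which called 26.9% of all probe sets. In dB/dB catalase-Tg minus dB/dB they became 2 in that fit (Bmf -1.30 and Bid 1.20, with 27.8% called) and 3 with array weights (Bmf -1.33, Bid 1.12 and Bcl2 -1.03, with 38.5% of all probe sets called). In catalase-Tg minus wild type they became 2 (Bid 2.66 and Bcl2 -1.46, with 12% of all probe sets called) without wild type 2 and 3. Its wild-type arm is then the single low-weight array wild type 1, assumed to vary like the other groups. The count was 0 to 1 when any single array was left out, the 1 being Bcl2 without wild type 2, with 1.49% called. Array weights follow an array's own distance from its group, so these fits count the outlying arrays less by construction.

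The Bmf difference in dB/dB minus wild type ran from 0.96 to 1.56 when any single array was left out, and in dB/dB catalase-Tg minus dB/dB from -1.30 to -0.87. With the replicate block, the Bmf values were 1.26 (limma adjusted p = 0.571) and -1.02 (adjusted p = 0.313), and the block changed no member's call. Over all alternatives the adjusted p of Bmf in dB/dB minus wild type ran from 0.00323 to 1.00. A filter at 6 leaves out Bmf, so it gave no value. Precision is limited by 3 arrays per group and by a Bmf signal near the filter.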
